A study of Saccharomyces cerevisiae with 6 samples.

Results

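Sulfate assimilation and methionine synthesis in budding yeast was followed through 10 genes: MET3, MET14, MET16, MET5 and MET10 for the reduction of sulfate to sulfide, MET2, MET17 and MET6 for the making of methionine from sulfide, MET28 for the regulation of the pathway, and MUP1 for the uptake of methionine. The genes were matched by symbol in the authors' fold change table, and each was read by 1 probe set, so no choice between probe sets had to be made. They are 10 of the 5420 genes that a probe set naming 1 gene measured. The cells were wild-type cultures of strain DBY746, grown at 30 °C in SDC medium from 0.002 to 2.0 A600 units per ml and collected at that density. The 3 No-myriocin cultures received 0.3% ethanol, the vehicle. The 3 Myriocin cultures received 300 ng/ml myriocin in the same concentration of ethanol from the start of growth. Both groups share the strain, the medium, the vehicle and the density at harvest. The methionine content of the medium is not given in the labels.

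Yeast takes up sulfate, activates it with ATP, reduces it to sulfite and then to sulfide, and joins the sulfide to an activated homoserine to give homocysteine. Methionine synthase methylates homocysteine, and methionine is then the source of S-adenosylmethionine, the main methyl donor of the cell. The genes of this route are known for being switched on together by the activator Met4 when methionine and cysteine are scarce, and repressed when they are plentiful. Myriocin blocks serine palmitoyltransferase, which joins serine to a fatty acid at the start of sphingolipid synthesis. The question asked here was whether the genes of the sulfur pathway differed between cells grown with and without the inhibitor.

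Values below are log2 signals, where a difference of 1 is a doubling, and differences are Myriocin minus No-myriocin. A gene was called when its adjusted p in limma, a linear model fitted across all 5420 genes, was under 0.05. Across the arrays 95.4% to 95.7% of the genes lay above 2.07, the highest log2 signal of 50 negative-control probe sets, taken as the background ceiling. The array medians lay between 11.06 and 11.08. Precision is limited by there being 3 arrays a group. The standard error (SE) of a change had a median of 0.11 over the genes. The 26 probe sets of the hybridisation controls bioB, bioC, bioD and cre had a mean difference of -0.32. Whether their level follows the amount of RNA from each culture was not tested. Setting the arrays level on these controls, called the control scale below, moved the genes' median change from -0.03 to 0.29, and the higher calls from 47.0% to 76.9% of all calls, so the direction of small changes depends on the scale.

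The pathway genes did not move as a block. MET28, MET10 and MET3 rose by 1.28, 1.04 and 0.86 log2 units, MUP1 fell by 1.98 and MET16 by 0.42, and MET2, MET5, MET6, MET14 and MET17 did not pass the test. Thus 3 of the 10 genes were called higher, where 25.5% of all genes were, and 2 of the 10 were called lower, where 28.8% of all genes were. These shares are near those of the whole array, and the 5 calls in either direction stand beside 54.4% of all genes. At least 2-fold, 2 of the 10 rose and 1 fell, against 8.95% and 7.51% of all genes. The same 5 genes had groups that did not overlap, 3 higher and 2 lower, against 30.6% and 35.8% of all genes and 66.4% in either direction. The median log2 fold change of the 10 genes was 0.02, against -0.03 over all genes tested. On the control scale 5 of the 10 were called higher and 1 lower, against 39.9% and 12.0% of all genes.

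**Figure D1:**
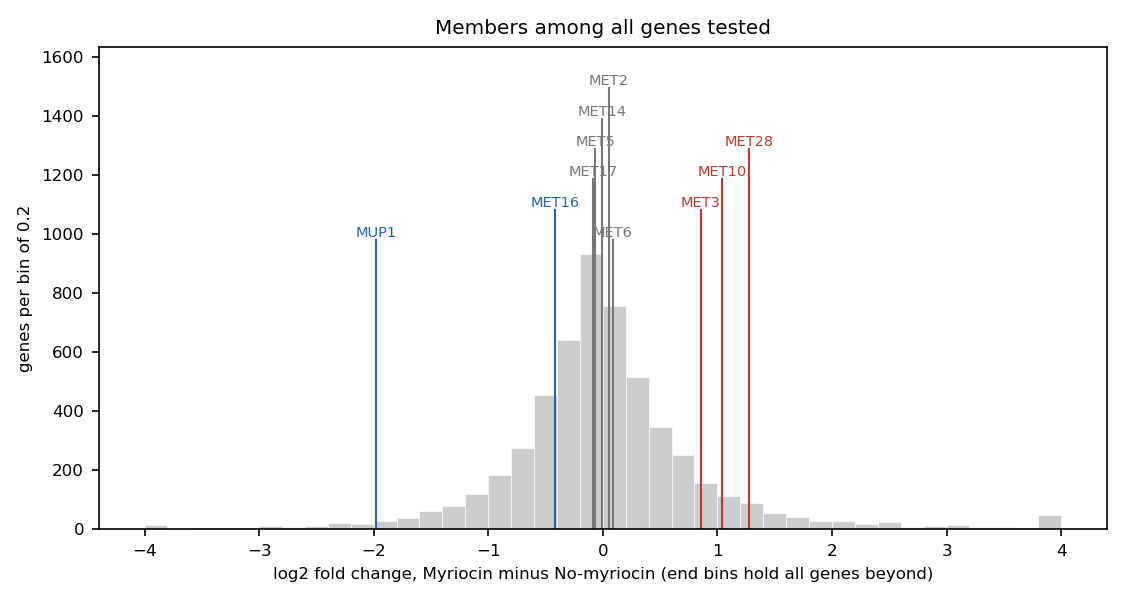
Histogram of log2 fold changes, Myriocin minus No-myriocin, of the 5420 genes tested, in bins of 0.2 whose end bins hold all genes beyond, with the 10 sulfur pathway genes as vertical lines (red called higher, blue called lower, grey not called). MUP1 at -1.98 stands far to the left, MET3, MET10 and MET28 at 0.86 to 1.28 lie on the right, and 5 genes lie near 0.

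Sulfate is activated and reduced by the enzymes of MET3, MET14 and MET16, which act one after the other. MET3 encodes ATP sulfurylase, which makes adenylyl sulfate. Its log2 signals were 8.72, 8.52 and 8.49 in the No-myriocin cultures and 9.40, 9.64 and 9.26 in the Myriocin cultures. Every Myriocin value lay above every No-myriocin value, and MET3 rose 1.81-fold (log2 fold change 0.86, SE 0.12, n = 3 per group, limma adjusted p = 0.00183).

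MET14 encodes the kinase that phosphorylates adenylyl sulfate. The MET14 log2 signals were 11.27, 11.31 and 11.56 without myriocin and 11.29, 11.54 and 11.30 with it. The groups overlapped through their whole range. The log2 fold change was -0.01, with a 95% confidence interval from -0.29 to 0.27 (limma adjusted p = 0.962), and 0.31 on the control scale (limma adjusted p = 0.161).

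MET16, the reductase that turns the phosphorylated product into sulfite, moved opposite to MET3. The arrays read 10.67, 10.49 and 10.58 without myriocin and 10.23, 10.29 and 9.95 with it. All 3 Myriocin values were lower than all No-myriocin values, and MET16 fell by 0.42 on the log2 scale (SE 0.11, limma adjusted p = 0.0213). That call was lost on the control scale (log2 fold change -0.10, limma adjusted p = 0.608) and without No-myriocin replicate 1 or 3 (limma adjusted p = 0.0635 and 0.0513). Within each array, the log2 signal of MET3 minus that of MET16 is not altered by a constant added to the array. This difference lay between -2.09 and -1.95 without myriocin and between -0.84 and -0.66 with it, a shift of 1.28. The pair was chosen after its values were seen, and the shift was not tested.

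Sulfite reductase, the next enzyme, is built from the products of MET10 and MET5, its alpha and beta subunits, and carries siroheme as a cofactor. MET10 had log2 signals of 9.48, 9.06 and 9.28 in the No-myriocin cultures and of 10.49, 10.26 and 10.21 in the Myriocin cultures. The groups were clearly apart, and MET10 rose 2.06-fold (log2 fold change 1.04, SE 0.13, limma adjusted p = 0.00137).

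MET5 had log2 signals of 7.860, 8.002 and 8.086 without myriocin and of 7.98, 7.84 and 7.92 with it. These groups overlapped. The log2 fold change of MET5 was -0.07, with a 95% confidence interval from -0.27 to 0.14 (limma adjusted p = 0.539), and 0.25 on the control scale (limma adjusted p = 0.19). The difference MET10 minus MET5 within each array went from between 1.06 and 1.62 without myriocin to between 2.29 and 2.51 with it, a shift of 1.11 that was not tested. The difference was larger on every Myriocin array than on any No-myriocin array. The pair was chosen after its values were seen.

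Siroheme itself is made by the products of MET1 and MET8, which moved in opposite directions. MET1, a methyltransferase of that synthesis, had log2 signals of 3.12, 3.98 and 1.88 without myriocin, the last under the background ceiling, and of 5.10, 5.45 and 5.11 with it. It rose by 2.23 (SE 0.50, limma adjusted p = 0.0109), a value read against signals near background. MET8, which makes siroheme in the last steps, had log2 signals of 7.41, 7.74 and 7.38 without and 6.22, 7.23 and 6.37 with myriocin. It fell by 0.90 (SE 0.27, limma adjusted p = 0.0321). That call was lost without any 1 array but Myriocin replicate 2 (limma adjusted p from 0.0559 to 0.102) and on the control scale (0.0688). MET22, whose phosphatase clears the nucleotide by-product of the Met16 step, fell by 0.83 (SE 0.11, limma adjusted p = 0.00155). The sulfate permease genes, named here after their values were seen, did not pass: SUL1 was under the background ceiling on all 6 arrays, and SUL2 changed by -0.10 log2 units (limma adjusted p = 0.398), or 0.21 on the control scale.

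**Figure D2:**
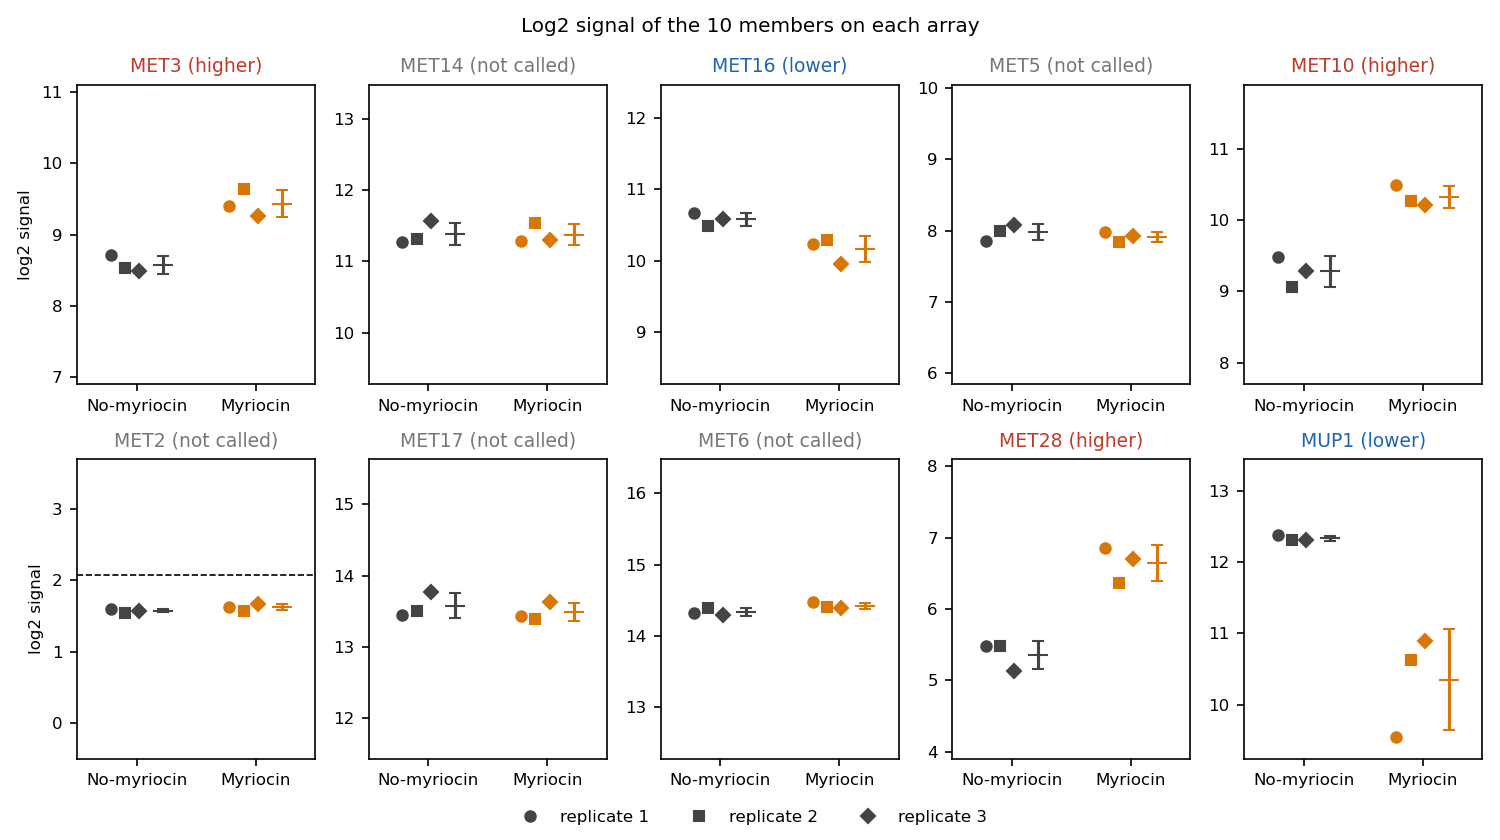
Log2 signal of each of the 10 genes on each array, No-myriocin in grey and Myriocin in orange, with the marker giving the replicate number and the bar the mean and SD of the 3 arrays. Every panel spans the same range of log2 units, and the dashed line at 2.07 in the MET2 panel is the background ceiling. The groups stand apart for MET3, MET10, MET28, MUP1 and MET16, and overlap for the other genes.

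Homoserine and sulfide meet at the product of MET17, the sulfhydrylase that makes homocysteine from acetylated homoserine. MET17 had log2 signals of 13.45, 13.50 and 13.78 without myriocin and of 13.44, 13.40 and 13.63 with it. The highest value of both groups was that of replicate 3, and the groups overlapped. The log2 fold change was -0.09, with a 95% confidence interval from -0.37 to 0.19 (limma adjusted p = 0.547), and 0.23 on the control scale (limma adjusted p = 0.282).

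MET2, the acetyltransferase that activates homoserine, was not well above background. Its log2 signals lay between 1.55 and 1.67 on all 6 arrays, under the ceiling of 2.07. No change of MET2 could therefore be read in either direction, and the fitted log2 fold change of 0.05 (limma adjusted p = 0.532) is not a measure of it. The call it gained on the control scale (limma adjusted p = 0.0434) came from a signal that stayed under the ceiling before scaling. Upstream of MET2, the homoserine genes were lower or did not pass. HOM3, aspartate kinase, the entry of the branch to homoserine and threonine, fell by 1.66 (SE 0.18, limma adjusted p = 0.000832). Its log2 signals went from 12.61, 12.67 and 12.49 to 10.51, 11.18 and 11.09. HOM2, the semialdehyde dehydrogenase, fell by 0.22 (SE 0.06, limma adjusted p = 0.0284), turning to 0.10 on the control scale. With the arrays paired by replicate number the adjusted p of HOM2 was 0.0593, and without any 1 array but Myriocin replicate 3 it lay between 0.0614 and 0.0955.

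MET6 encodes methionine synthase, the last enzyme of the route. The log2 signals of MET6 were 14.32, 14.39 and 14.29 without myriocin and 14.47, 14.40 and 14.39 with it. The groups overlapped by a narrow margin. The log2 fold change was 0.08, with a 95% confidence interval from -0.08 to 0.25 (limma adjusted p = 0.324), and 0.40 on the control scale, where it was called (limma adjusted p = 0.0273). Of the genes supplying its methyl group, the methylenetetrahydrofolate reductase gene MET12 rose by 0.78 (SE 0.09, limma adjusted p = 0.000912). MET13, its paralog, named after its value was seen, changed by 0.13 log2 units with a 95% confidence interval from -0.41 to 0.68 (limma adjusted p = 0.647). MET7, which adds the glutamate tail to folates, fell by 0.51 (SE 0.09, limma adjusted p = 0.00362), a call lost on the control scale (log2 fold change -0.20, limma adjusted p = 0.241).

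Downstream of methionine, 4 of the 5 genes of the S-adenosylmethionine cycle were called lower, where 28.8% of all genes were. None of them was called on the control scale, where 12.0% of all genes were lower and the median of the list was 0.06. SAM1 and SAM2 are closely alike in sequence, and whether their probe sets share signal was not tested. SAM4, a homocysteine methyltransferase, fell by 0.56 and SAM1, an S-adenosylmethionine synthetase, by 0.49. SAM2, the second synthetase, and SAH1, the hydrolase of S-adenosylhomocysteine, fell by 0.24 and 0.25, turning to 0.07 and 0.06 on that scale. The calls of 3 of these depended on single arrays. The adjusted p of SAM1 was 0.0521 and 0.0654 without No-myriocin replicate 1 and 2. That of SAM2 lay between 0.0529 and 0.0812 without any 1 No-myriocin array or Myriocin replicate 1, and was 0.0514 with the arrays paired. That of SAH1 lay between 0.0523 and 0.0614 without No-myriocin replicate 1 or 2 or Myriocin replicate 1. MHT1, the paralog of SAM4, was at background on all 6 arrays.

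MET28 encodes a leucine-zipper protein that holds the activator Met4 on its promoters together with the DNA-binding protein Cbf1. Its log2 signals were 5.47, 5.47 and 5.13 without myriocin and 6.86, 6.36 and 6.70 with it. The groups were apart by a wide margin, and MET28 rose 2.43-fold (log2 fold change 1.28, SE 0.16, limma adjusted p = 0.00124). It was the highest log2 fold change of the 10 genes, ranked 342 from the top among the 5420 genes.

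Of the other 5 regulators 1 was called higher and 2 lower, where 25.5% and 28.8% of all genes were. On the control scale 2 were called higher and 0 lower, against 39.9% and 12.0% of all genes. MET4, the activator itself, had log2 signals of 12.06, 12.32 and 12.22 without and 12.03, 12.14 and 12.07 with myriocin, and a log2 fold change of -0.12 (95% confidence interval from -0.34 to 0.10, limma adjusted p = 0.288), or 0.19 on the control scale. CBF1, the DNA-binding partner, lay at the background ceiling, with log2 signals of 1.92 to 2.00 without and 2.03 to 2.08 with myriocin, so its small difference cannot be read. The calls CBF1 gained on the control scale (limma adjusted p = 0.021) and by the equal-variance test (adjusted p = 0.044) came from these signals. MET31 and MET32, the zinc-finger proteins that also bring Met4 to promoters, fell by 0.56 each (limma adjusted p = 0.0104 and 0.0461). Both calls were lost on the control scale (log2 fold change -0.24 and -0.25, limma adjusted p = 0.236 and 0.36). MET32 lost its call also without No-myriocin replicate 1 or 3 or Myriocin replicate 2 or 3 (limma adjusted p from 0.117 to 0.134), and its groups overlapped. MET30, the F-box protein through which Met4 is marked with ubiquitin, rose 2.15-fold (SE 0.11 on the log2 scale, limma adjusted p = 0.000526), from log2 signals of 10.10, 10.03 and 9.91 to 11.02, 11.03 and 11.30.

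MUP1, the high-affinity methionine permease, had the deepest fall of the 10 genes. On the arrays its log2 signal was 12.38, 12.31 and 12.32 without myriocin and 9.54, 10.62 and 10.89 with it. The No-myriocin arrays lay within 0.1 of each other, whereas the Myriocin arrays spread over more than 1 log2 unit, with replicate 1 the lowest. MUP1 fell by 1.98 on the log2 scale (SE 0.34, limma adjusted p = 0.00375), ranked 97 from the bottom among the 5420 genes. Without Myriocin replicate 1 it fell by 1.58 (limma adjusted p = 0.000923), and on the control scale by 1.67 (limma adjusted p = 0.001).

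MUP3, the low-affinity methionine permease, went the other way. Its log2 signals were 10.14, 10.01 and 9.47 without myriocin and 11.33, 11.74 and 11.68 with it, and it rose 3.27-fold (log2 fold change 1.71, SE 0.20, limma adjusted p = 0.00103). SAM3, the S-adenosylmethionine permease, fell by 2.52 (SE 0.49, limma adjusted p = 0.00642), from log2 signals of 10.92, 10.91 and 10.85 to 7.83, 7.70 and 9.59. Without Myriocin replicate 3, whose value was the highest of its group, SAM3 fell by 3.13. MMP1, the S-methylmethionine permease, gave a change of -1.12 log2 units that narrowly missed the threshold (limma adjusted p = 0.0502). It passed in 7 of the other settings, with the arrays paired by replicate number (0.00508), without No-myriocin replicate 3 (0.0153), and in 5 others that changed the normalisation, the variance or the handling of background (0.0361 to 0.0477). Of other transporters, the general permease gene AGP3 rose by 1.39 from signals near background, where 1 No-myriocin array lay under the ceiling. The sulfite exporter gene SSU1 fell by 0.71, a call lost without No-myriocin replicate 1 or 2 or Myriocin replicate 1 or 3 (limma adjusted p from 0.0618 to 0.0854) and on the control scale (0.0772).

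Across the pathway lists, 42 genes other than these 10 were measured, of which 9 were called higher and 18 lower, against 25.5% and 28.8% of all genes. On the control scale 11 were higher and 4 lower, against 39.9% and 12.0% of all genes. Their median log2 fold change was -0.14, against -0.03 over all genes. Without No-myriocin replicate 1, 10 of the 42 were called lower, against 25.2% of all genes, and without No-myriocin replicate 2, 11 were, against 21.7%. With each gene's own variance in place of limma's moderated one, MET8, SAM1, STR2, MET32, SSU1 and BDS1 missed the threshold (adjusted p from 0.0523 to 0.111), and MET32 missed it also with an intensity trend and robust variance (0.0595).

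In transsulfuration, which links homocysteine and cysteine, 2 of 4 genes were called higher and 1 lower, where 25.5% and 28.8% of all genes were. On the control scale 2 were called higher and 0 lower, against 39.9% and 12.0% of all genes. STR3, the lyase toward homocysteine, rose by 1.71 (SE 0.23, limma adjusted p = 0.00164). Its log2 signals were 2.84 to 3.39 without myriocin, not far above the background ceiling of 2.07, and 4.37 to 5.15 with it. STR2, the cystathionine synthase of that direction, rose by 0.47 (SE 0.15, limma adjusted p = 0.0368). Its call was lost without No-myriocin replicate 2 or 3 or Myriocin replicate 1 or 3 (limma adjusted p from 0.0848 to 0.107). CYS3, the lyase toward cysteine, fell by 0.60 (SE 0.13, limma adjusted p = 0.0104), a call lost on the control scale (log2 fold change -0.28, limma adjusted p = 0.174). CYS4, which makes cystathionine from homocysteine and serine and is named here after its value was seen, measured -0.16 on the log2 fold scale (limma adjusted p = 0.121).

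In methionine salvage, which recycles the methylthio group, 4 of 7 genes were called lower and 1 higher, where 28.8% and 25.5% of all genes were. On the control scale 1 was called lower and 2 higher, against 12.0% and 39.9% of all genes. The dioxygenase gene ADI1 fell by 0.85 (SE 0.10, limma adjusted p = 0.000959) and by 0.54 on that scale. MDE1, UTR4 and MRI1, of the earlier steps, fell by 0.53, 0.52 and 0.39 and were not called on that scale, where their log2 fold changes were -0.21, -0.21 and -0.07. MRI1 lost its call also without No-myriocin replicate 1 or 2 (limma adjusted p = 0.0527 and 0.0552). ARO9, an aromatic aminotransferase that can close the cycle, rose by 1.24 (SE 0.27, limma adjusted p = 0.00984). Among genes for other sulfur sources, the sulfatase gene BDS1 rose by 0.52. That call was lost without No-myriocin replicate 1 or 2 or Myriocin replicate 1 or 3 (limma adjusted p from 0.0682 to 0.0753) and under quantile normalisation (0.122).

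**Figure D3:**
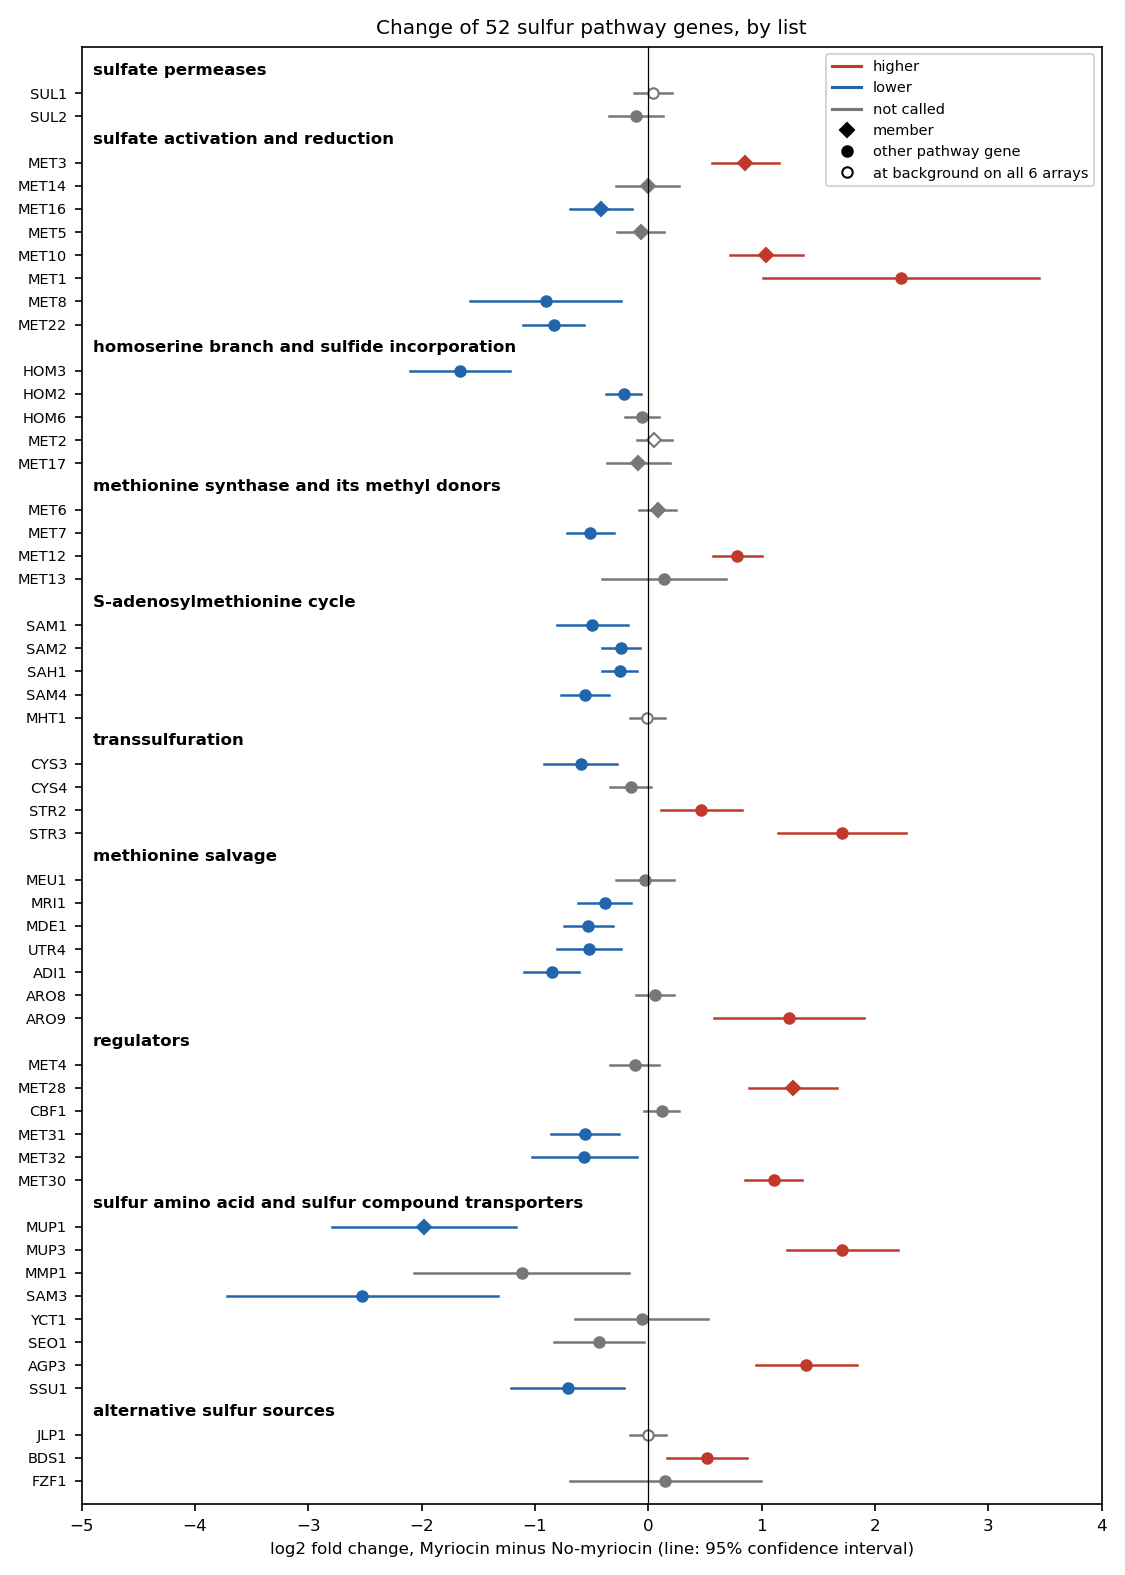
Log2 fold change, Myriocin minus No-myriocin, with its 95% confidence interval, for the 52 sulfur pathway genes in 10 lists. Diamonds are the 10 genes described, circles the other 42, open symbols genes at background on all 6 arrays, and colours the call by limma. Within most lists some genes lie to the right of 0 and others to the left, with MET1 at 2.23 and SAM3 at -2.52 at the ends.

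For MET3, MET10 and MET28 the spread among replicates was small beside the change. For MUP1, the largest change of the 10, it was wider, with an SD of 0.71 on the Myriocin arrays. Of the 9 genes above background, between 3 and 5 lay above their group mean on each array, so no array stood high or low for all of them. The largest deviations from a group mean were those of MUP1, from -0.81 on Myriocin replicate 1 to 0.54 on Myriocin replicate 3. Among the other 8 genes no deviation exceeded 0.28 log2 units in size. MET3, MET10, MET28 and MUP1 kept their direction and their call when any 1 array was left out, with log2 fold changes from 0.76 to 0.94, from 0.94 to 1.15, from 1.16 to 1.42 and from -2.25 to -1.58.

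**Figure D4:**
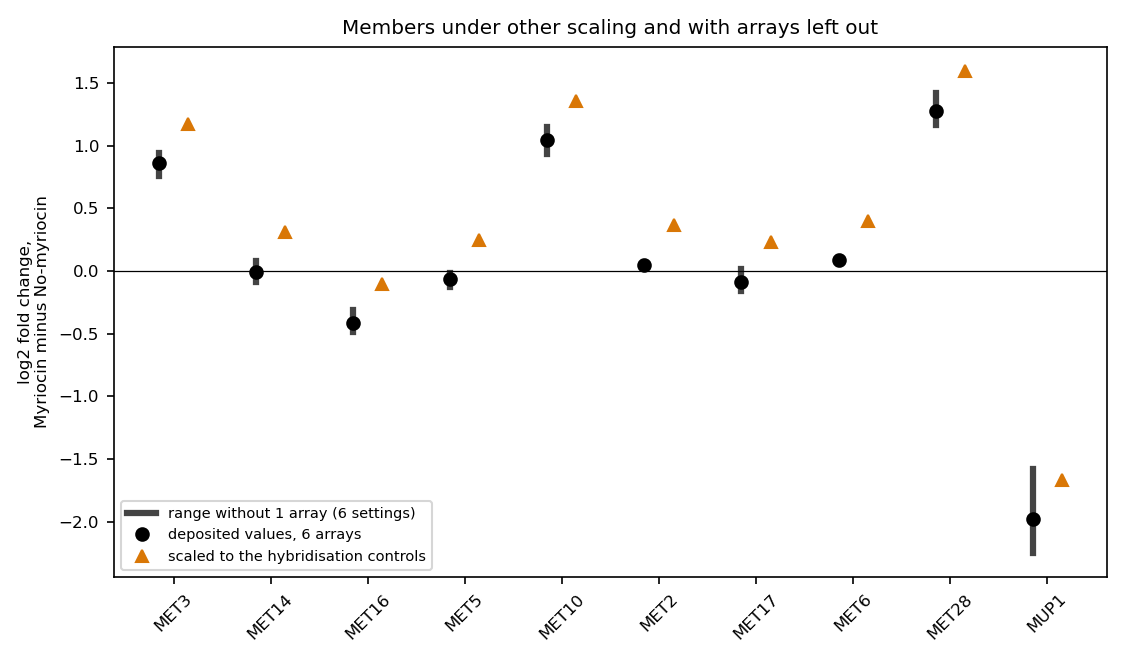
Log2 fold change, Myriocin minus No-myriocin, of the 10 genes from the deposited values (circles), the range when 1 of the 6 arrays is left out (bars) and the value on the control scale (triangles). That scaling raises every gene by 0.32, which brings MET16 from -0.42 to -0.10, while MET3, MET10, MET28 and MUP1 stay on the same side of 0.

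The authors' deposited table compares the same arrays, so it is not separate evidence. Its unadjusted p-values were under 0.05 for MET3, MET10, MET28, MET16 and MUP1. They were above 0.05 for MET2, MET5, MET6, MET14 and MET17. The share of all genes under that cutoff was not counted. These p-values therefore do not show whether the 10 genes differ from the whole array. The authors' deposited table gives ratios of 2.06 for MET10, 1.81 for MET3 and 0.748 for MET16. Its p-values for these genes are unadjusted, 0.00221 for MET10, 0.00276 for MET3 and 0.0247 for MET16.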

How the data were processed

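Each of 6 cultures gave 1 single-colour array, per the labels' protocols. The authors deposited a normalised log2 signal for every probe set, and how they summarised and normalised the probes is not given in the sources used here. The tool named is Partek, per the submitters' processing notes. The log2 scale of the deposited values was checked against the authors' ratios: differences of group means equalled the log2 of the ratio in the authors' deposited table to within 8.48e-05. That table also holds the authors' p-values and a signed fold score, per the file headers.

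Of 5900 probe sets, 184 were controls, 5445 named 1 gene by the platform annotation or, for 24, the authors' table, 79 named several and 192 were unnamed. The brightest probe set stood for each of the 24 genes with more than 1. A second probe set that the authors' table names SAM4 carries another name in the platform annotation and was not used for SAM4. The 3 Myriocin and 3 No-myriocin arrays entered a limma 3.58.1 fit (R 4.3.3) of group alone over all genes, with moderated two-sided tests from eBayes. Genes with a p under 0.05 after Benjamini-Hochberg adjustment were called, and dim genes were kept. The script was tested on simulated arrays. The background ceiling was set after seeing the data. All 10 members, the 6 regulators, called genes of the lists and genes of the same step or transporter family as a member were named. The members and lists were chosen with earlier results of these data known. No sequences or coordinates were used here.

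Replicate numbers were taken to pair the arrays in another setting, the replicate block below, and the main fit did not use the pairing. Deviations from the group means of equal numbers correlated at 0.169, 0.233 and 0.175 across genes, each over 0.1. Those of unequal numbers correlated at values from -0.151 to -0.0552. For each gene the deviations within a group cancel out, so positive values for equal numbers push the unequal ones negative. The negative values are therefore no separate evidence of pairing. The paired fit is given where it changed a call. The labels call the replicates biological. Figures were drawn with matplotlib 3.10.9.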

Additional observations from a re-analysis of the deposited data

How the results depend on the processing

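The results were recomputed under 17 other settings, of which leaving out background genes and flooring values at background were chosen after seeing the data. MET3, MET10, MET28 and MUP1 kept direction and call in every setting that included them; MET3 and MET28 were not tested with the dimmest 25% of genes left out. That filter also left out MET2 and MET5. Among the genes it kept, 1077 were called higher, with MET10 the only 1 from the 10 and 4 from the other 42. MET1, STR3, ARO9, AGP3 and BDS1, called higher in the main fit, were left out by the filter and not tested there. The lower counts thus come from genes left out and not from lost calls, and cannot be read against the full 10 and 42. With the array level set by the hybridisation controls 2164 genes were called higher and 651 lower, 5 and 1 of the 10, and 4 of the other 42 lower; MET2 and MET6 gained calls at 0.37 and 0.40, MET16 lost its call at -0.10, and MET5, MET14 and MET17 turned to 0.25, 0.31 and 0.23, as did SUL2 to 0.21, HOM2 to 0.10, SAM2 to 0.0722, SAH1 to 0.0628 and MET4 to 0.19. CBF1, at the background ceiling, gained calls with that array level and by the equal-variance test. By the equal-variance test 1 of the 10 was called lower, beside 1354 of all genes. MET16 missed the threshold at -0.42 (equal-variance adjusted p = 0.0519), as did 6 called genes outside the 10 (MET8, SAM1, STR2, MET32, SSU1 and BDS1). At an adjusted p under 0.01, 966 genes, 1 of the 10 and 7 of the other 42 were called lower. Leaving out 1 array gave 1 to 2 of the 10 and 10 to 16 of the other 42 called lower, beside 1176 to 1401 of all genes, and log2 fold changes from -0.49 to -0.31 for MET16, from -0.0896 to 0.0827 for MET14 and from -0.16 to 0.0119 for MET17. Of 27 called genes outside the 10, 10 kept direction and call in every setting run, and 10 lost the call without at least 1 array. The replicate block changed no call of the named genes other than HOM2, SAM2 and MMP1. Among the 10, MET3 had 0.86, MET16 -0.42 and MUP1 -1.98, with 3 called higher and 2 lower. Of the other 42 the block called 9 higher and 17 lower, beside 1374 higher and 1471 lower of all genes. With 3 arrays per group, changes smaller than the intervals given could not be resolved, and signals under 2.07 carry no order.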
